A study of Mus musculus with 9 samples.

Results

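Pannexins and connexins are the channel proteins described here, in cells edited in the palmitoyltransferase gene Zdhhc20. The 8 genes are Panx1, Panx2, Gja1, Gjb1, Gjb2, Gjb5, Gjb6 and Gjc1, out of 54838 gene identifiers in the count table and out of 23 connexin and pannexin genes in it. They were selected on the measured Panx1 level, which was 0 in the knockout group and not in the other groups, so the members' own comparisons with that group are given below as descriptions without p values. Of the 8 genes, 7 held at least 1 count and 5 passed the filter on low counts (Panx1, Gja1, Gjb1, Gjb5 and Gjc1).

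The cells were PDA530 Met, a mouse pancreatic ductal adenocarcinoma line started from a hepatic metastasis of a male KPC animal (mixed 129/SvJae/C57Bl/6 background), a genetically engineered model of this cancer. RNA-seq was available for 3 groups of 3 libraries, all from untreated cultures in DMEM. The knockout group was 1 single-cell clone (clone E4), called the edited clone here, in which Zdhhc20 had been targeted with CRISPR/Cas9. The control group was 1 single-cell clone (clone C5), nucleofected with the same guides without being edited, which still makes Zdhhc20 and is called the unedited clone here. The uncloned PDA530 Met line formed the parental group. Each of the knockout and control groups is thus 1 clone, and the tests below measure the spread between libraries of these cultures, not between independent clones.

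Connexins assemble into gap junctions, channels that join the cytoplasm of neighbouring cells and let ions, second messengers and small metabolites pass. Pannexins resemble them in fold but work mostly as channels in the plasma membrane of a single cell. PANX1 is best known as a release route for ATP, which acts on purinergic receptors of the P2X and P2Y families until ectoenzymes break it down to adenosine. Ductal and acinar cells of the pancreas are coupled by gap junctions, and carcinoma cells often express a different mixture of connexins from the epithelium they arise from.

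Total counts ranged from 16525869 to 23192701 per library. Zdhhc20 was at 38.0 ± 4.34 CPM (counts scaled for depth; SD, n = 3) in the edited clone, 110.0 ± 20.7 in the unedited clone and 82.4 ± 7.74 in the parental line, and was called lower in the edited clone against each (edgeR, adjusted p = 6.97e-05 and 0.000585). All 10 epithelial and ductal markers had counts, but Epcam stayed below 1 CPM in every library. Of the 10, 2 were called higher and 7 lower in the edited clone against the unedited clone, and 2 and 6 against the parental line. Their summed level was 4420 to 4560 CPM in the edited libraries, 7320 to 9840 in the unedited libraries and 6870 to 8360 in the parental libraries. Fibroblast markers summed to at most 4.0 CPM in any library, with Col1a2, Col3a1, Dcn, Lum and Thy1 at 0, and immune markers to at most 2.92 CPM, with Cd3e and Adgre1 among those at 0. Endothelial markers summed to at most 0.577 CPM, and hepatocyte markers to at most 3.06 CPM, with Serpina1a, Cyp2e1 and Fgb at 0. In bulk RNA, fewer cells that express a gene and less RNA per cell cannot be told apart.

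Panx1 and Gjb1 were the tested members at or near 0 in the edited clone, so the reference sequences before their transcription starts are shown first, taken from RefSeq on GRCm38.p6. Each is the 250 bases just upstream of a start, 5′ to 3′ on the strand of the gene, and capitals mark each CG dinucleotide, the base pair step at which vertebrate DNA is methylated. CG reads the same on both strands and its matches do not overlap. The Panx1 window is chr9:15045479-15045728 on the minus strand. RefSeq gives Gjb1 4 starts, of which the most upstream, at chrX:101376126-101376375, and the most downstream, at chrX:101383482-101383731, are shown, both on the plus strand.
Panx1: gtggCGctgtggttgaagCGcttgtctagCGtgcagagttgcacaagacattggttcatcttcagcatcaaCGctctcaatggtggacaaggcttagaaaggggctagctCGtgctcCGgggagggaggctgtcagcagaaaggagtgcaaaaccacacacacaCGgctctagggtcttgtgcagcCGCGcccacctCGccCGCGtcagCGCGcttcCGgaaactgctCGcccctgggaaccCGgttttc
Gjb1 most upstream start: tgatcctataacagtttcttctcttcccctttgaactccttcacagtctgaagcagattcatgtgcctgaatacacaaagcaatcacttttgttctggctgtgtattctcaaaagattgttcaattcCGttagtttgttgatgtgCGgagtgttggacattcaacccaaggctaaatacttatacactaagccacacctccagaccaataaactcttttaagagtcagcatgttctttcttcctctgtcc
Gjb1 most downstream start: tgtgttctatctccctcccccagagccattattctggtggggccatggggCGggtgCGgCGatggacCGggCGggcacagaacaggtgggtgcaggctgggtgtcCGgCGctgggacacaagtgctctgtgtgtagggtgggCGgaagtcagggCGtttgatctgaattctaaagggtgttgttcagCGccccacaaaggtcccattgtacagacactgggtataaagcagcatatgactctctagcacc

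The Panx1 window held 17 CG dinucleotides, more than 76.5% of the 32841 promoter windows of the same length. The Gjb1 windows, from the most upstream to the most downstream start, held 2, 1, 4 and 10, and the last exceeded 62.2% of all windows. The other windows held 18 CG dinucleotides for Gjb2, 6 for Gja1, 5 for Gjb6 and 3 for Gjb5. Across all windows the median was 6, the middle of the distribution ran from 2 to 16, and 92.1% held at least 1. Promoter entries were matched for 6 of the 8 genes, all but Panx2 and Gjc1. DNA methylation was not measured, and gene-level counts do not tell which start of Gjb1 was used.

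Panx1 (ENSMUSG00000031934, chr9:15002128-15045478, minus strand) encodes the ATP-releasing pannexin. It was assigned 0 counts in each of the 3 edited libraries, 186, 150 and 197 counts in the unedited libraries and 200, 158 and 149 counts in the parental libraries. The edited libraries stood apart from all 6 others. The level was 9.13 ± 1.12 CPM (SD, n = 3) in the unedited clone and 9.24 ± 0.438 CPM in the parental line. A count of 0 over the 3 edited libraries allows a level of up to 0.054 CPM, so Panx1 was at least 168-fold lower than in the unedited clone and at least 172-fold lower than in the parental line. These bounds use a floor of 3 counts over the group and cover counting error only.

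Between the unedited clone and the parental line, Panx1 differed by -0.02 on the log2 scale (SE 0.15), and their libraries overlapped. That both groups expressed Panx1 was part of the choice, so this value is a description as well. No stretch of 50 bases in the Panx1 exons occurred in another annotated gene and no other gene overlapped it, so the counts are not shared with a copy in this annotation.

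Panx2, the pannexin known mostly from brain, was assigned 0 counts in all 9 libraries, which allows up to 0.0177 CPM over the whole series. Panx3 also had no count. Panx1 was thus the one pannexin detected, and in the edited clone no pannexin RNA was detectable at this depth.

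**Figure D1:**
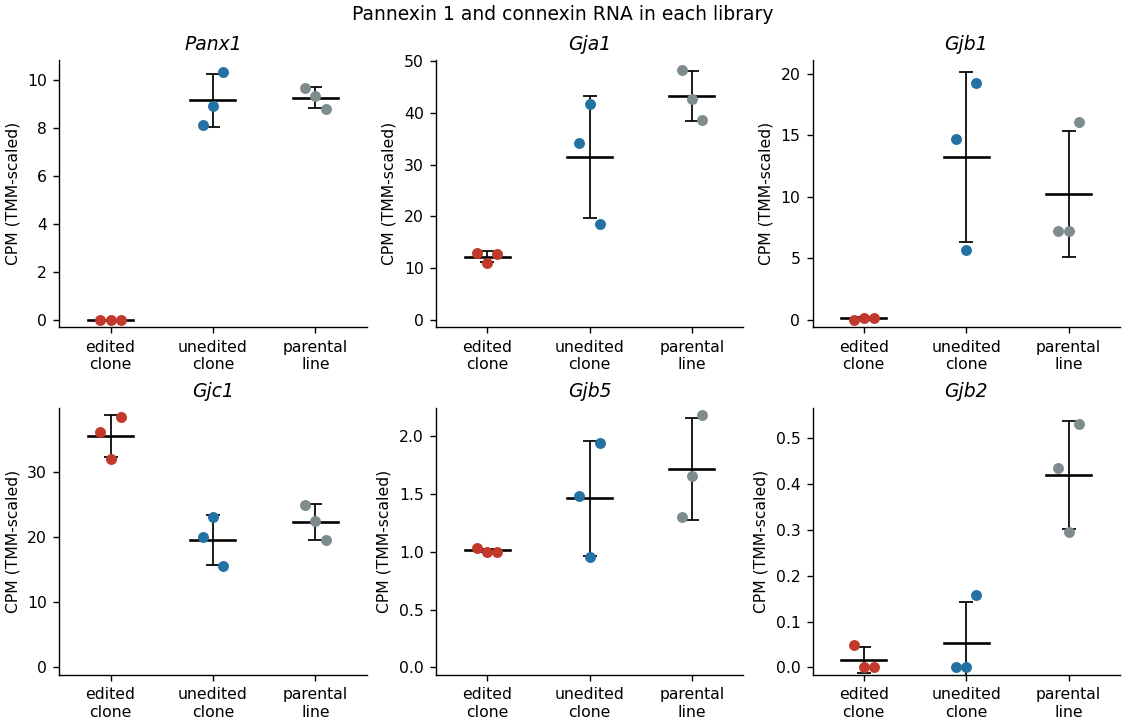
Level of the 6 genes with more than a few counts, in CPM after TMM scaling, in each library of the edited clone, the unedited clone and the parental line. Points are libraries, the wide bar is the group mean and the error bars are 1 SD (n = 3). The edited-clone points of Panx1 and Gjb1 lie at or near 0, those of Gja1 lie below and those of Gjc1 above the 6 other libraries, and those of Gjb5 overlap the unedited clone.

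Gja1 (ENSMUSG00000050953, chr10:56377330-56402513, plus strand) encodes Cx43, the most widely expressed connexin. It was at 12.9, 11.0 and 12.7 CPM in the edited libraries, 34.3, 41.7 and 18.5 in the unedited libraries and 48.4, 42.7 and 38.7 in the parental libraries. All 3 edited libraries were below the other 6, and unedited replicate 3 was the lowest of those. The fitted log2 difference was -1.36 (SE 0.25) against the unedited clone and -1.82 (SE 0.25) against the parental line, that is 0.388 and 0.282 times their levels. With 1 library left out the first ranged from -1.63 (without unedited replicate 3) to -1.11 (without unedited replicate 2). Between the unedited clone and the parental line the log2 difference was -0.46 (SE 0.24, adjusted p = 0.207), which was not called. Leaving out unedited replicate 2, the highest unedited library, gave -0.71 (adjusted p = 0.0341), and that call rests on which unedited libraries enter.

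Gjb1 (ENSMUSG00000047797, chrX:101376378-101385629, plus strand) encodes Cx32, the main connexin of liver cells and of pancreatic acinar cells. It was assigned 0, 3 and 2 counts in the edited libraries, 336, 95 and 366 in the unedited libraries and 150, 122 and 273 in the parental libraries. No edited library overlapped another group. The mean was 0.0946 ± 0.0857 CPM in the edited clone, 13.2 ± 6.9 in the unedited clone and 10.2 ± 5.11 in the parental line (SD, n = 3). From the summed counts scaled for depth, the unedited clone was 151-fold higher (95% counting interval 64.3 to 465) and the parental line 111-fold higher (47.1 to 342). Fitted log2 differences were -7.09 (SE 0.80) and -6.71 (SE 0.81). Single edited libraries moved them, to -7.77 and -7.40 without edited replicate 2 and to -6.46 and -6.09 without edited replicate 1.

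Gjb1 was also the most uneven of the tested members inside a group, with a within-group SD of 0.77 on the log2 scale against 0.11 for Panx1. Unedited replicate 2 was at 5.65 CPM, against 14.7 and 19.2 in unedited replicates 1 and 3. Parental replicate 3 was at 16.1 CPM, against 7.23 and 7.19 in the other parental libraries. The summed epithelial markers moved with this spread: they were at 9670, 7320 and 9840 CPM in unedited replicates 1 to 3 and at 6870, 6910 and 8360 CPM in parental replicates 1 to 3. Their part in the level of Gjb1 was not tested. The unedited clone and the parental line overlapped and differed by 0.38 (log2, SE 0.45, adjusted p = 0.586), and without parental replicate 3 the difference was 0.86, not called either.

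Gjb5 (ENSMUSG00000042357, chr4:127354809-127358181, minus strand) encodes a connexin known from skin and placenta. It stood at 1.03, 1.0 and 0.993 CPM in the edited libraries, 1.48, 0.952 and 1.94 in the unedited libraries and 1.3, 1.65 and 2.18 in the parental libraries. The edited libraries overlapped the unedited clone through unedited replicate 2 and were below all parental libraries. Fitted log2 differences were -0.54 (SE 0.32) against the unedited clone and -0.75 (SE 0.32) against the parental line. The unedited clone and the parental line differed by -0.21 (SE 0.31, adjusted p = 0.659). It held 16 to 37 counts per library.

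Gjb2 and Gjb6 encode Cx26 and Cx30, which form the gap junctions of the cochlea and also occur in glandular and stratified epithelia. Gjb2 (ENSMUSG00000046352, chr14:57098600-57104702, minus strand) was assigned 1, 0 and 0 counts in the edited libraries, 0, 0 and 3 in the unedited libraries and 9, 5 and 9 in the parental libraries. The parental libraries were all above the 6 libraries of the clones. Scaled for depth, the parental line were 8.23-fold higher than the unedited clone (95% counting interval 2.49 to 42.8) and 23.4-fold higher than the edited clone (3.79 to 962). Gjb2 did not pass the filter. In a fit without it the unedited clone was lower than the parental line, with a log2 difference of -2.88, which was not called (adjusted p = 0.0676). Gjb6 (ENSMUSG00000040055, chr14:57123303-57133611, minus strand) had 2 counts in unedited replicate 3 and none elsewhere.

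Gjc1 (ENSMUSG00000034520, chr11:102799579-102819700, minus strand) encodes Cx45, known from heart and vessels, and was the one tested member with a higher level in the edited clone. It was at 36.0, 31.9 and 38.3 CPM in the edited libraries, 19.9, 23.0 and 15.5 in the unedited libraries and 24.9, 22.5 and 19.5 in the parental libraries. Every edited library was above the other 6. The fitted log2 difference was 0.86 (SE 0.15) against the unedited clone and 0.67 (SE 0.15) against the parental line, or 1.82 and 1.59 times their levels. Between the unedited clone and the parental line it was -0.20 (SE 0.15, adjusted p = 0.395), with overlapping libraries.

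**Figure D2:**
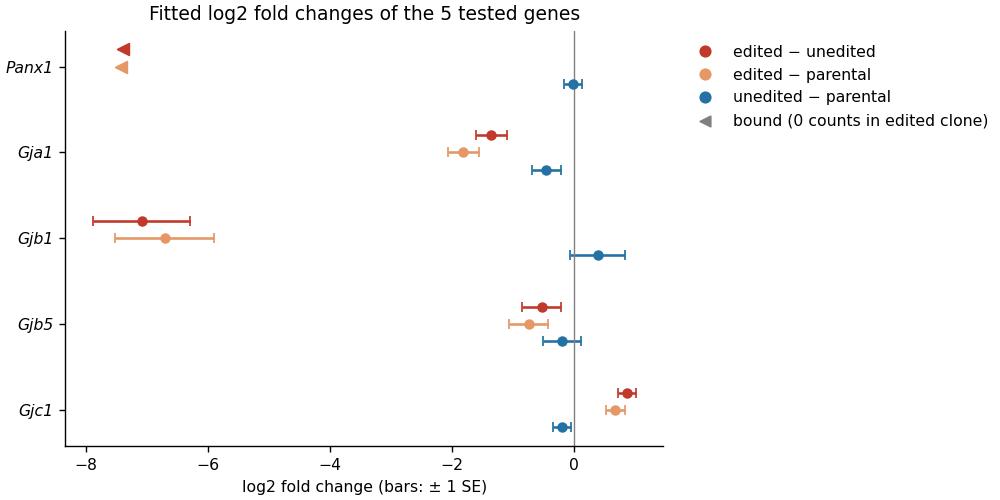
Fitted log2 fold change of the 5 tested genes in the 3 comparisons, with bars of 1 SE; triangles mark the bounds for Panx1, which held 0 counts in the edited clone. Panx1, Gja1, Gjb1 and Gjb5 lie left of 0 and Gjc1 right of 0 in both knockout comparisons, while the unedited clone against the parental line lies within -0.46 to 0.38.

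By the threshold used for all genes (adjusted p under 0.05), 4 of the 5 genes, Panx1 among them, were called in each knockout comparison, 3 lower and 1 higher. Of the 13153 tested genes, 42.9% were called against the unedited clone (18.7% higher, 24.2% lower) and 31.4% against the parental line (13.1% higher, 18.3% lower). Since the level of Panx1 in the edited clone chose the set, these counts are a description and nothing is read from them. Groups did not overlap for 4 of the 5 genes against the unedited clone, 1 higher and 3 lower, where this held for 51.6% of all tested genes (24.0% higher, 27.6% lower). Against the parental line they did not overlap for all 5, 1 higher and 4 lower, where it held for 61.5% (29.8% higher, 31.7% lower). In the unedited clone against the parental line, which the choice used for Panx1 alone, 0 of 5 were called by edgeR, DESeq2 or limma voom, and 0 had an unadjusted p under 0.05 in edgeR, against 21.4% of all tested genes called (10.4% higher, 11.0% lower). None of the 5 was free of overlap there, against 37.3% of all tested genes (18.2% higher, 19.2% lower). With 5 genes, that count has little precision, and the SEs above give the size of difference that could have been missed.

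Among the other connexins, Gja4 encodes a connexin of vascular endothelium. It was at 0.953 ± 0.406 CPM in the edited clone, 0.276 ± 0.141 in the unedited clone and 0.596 ± 0.354 in the parental line. It rose in the edited clone against the unedited clone (log2 1.72, SE 0.57, adjusted p = 0.034) but was not called against the parental line (0.68, adjusted p = 0.349). This call was lost with the replicate block and when edited replicate 1 or 3 or any 1 unedited library was left out (adjusted p = 0.0512 to 0.112). Gja5, Gja6, Gjc3 and Gjd4 held a few counts each and were not tested. Gja5 had 6 counts over the unedited libraries, 4 over the parental libraries and none in the edited clone.

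Levels of the members were compared with each other per exon length (RPKM, the CPM divided by the exon length in kilobases). In the parental line the order was Gjb1 (5.95 ± 2.99 RPKM), Gjc1 (4.46 ± 0.544) and Gja1 (4.22 ± 0.478), which lie within each other's spread, and then Gjb5 (0.993 ± 0.256). Gjb1 was below both Gjc1 and Gja1 in parental replicate 1 and below Gjc1 in parental replicate 2. In the unedited clone the order was Gjb1 (7.72 ± 4.04), Gjc1 (3.89 ± 0.758), Gja1 (3.07 ± 1.16) and Gjb5 (0.848 ± 0.288), with the first 3 within each other's spread, and Gjb1 below both Gjc1 and Gja1 in unedited replicate 2. In the edited clone it was Gjc1 (7.08 ± 0.64), Gja1 (1.19 ± 0.106) and Gjb5 (0.585 ± 0.00985), with Gjb1 at 0.0554 ± 0.0502. Panx1 stood at 1.51 ± 0.187 RPKM in the unedited clone and 1.53 ± 0.0727 in the parental line, between Gja1 and Gjb5.

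**Figure D3:**
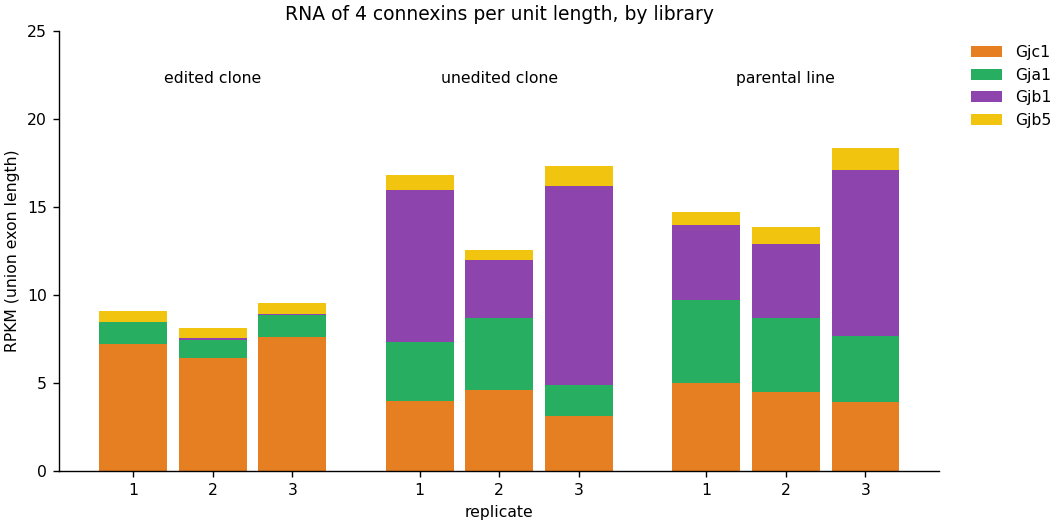
RPKM of 4 member connexins (Gjc1, Gja1, Gjb1 and Gjb5) in each library, stacked by gene, with union exon length as the length. The Gjb1 block is absent to the eye in the 3 edited-clone bars and varies among the unedited and parental bars, and the Gjc1 block is thickest in the edited-clone bars.

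Several members have neighbours of interest on their chromosomes. Gjb5 and Gja4 both lie on chromosome 4, and had log2 differences of opposite sign, -0.54 and 1.72, between the edited and unedited clones. Gjb2, Gjb6 and Gja3 lie together on chromosome 14, 728, 699 and 775 kb from the edited gene Zdhhc20. Gja3 had no count in any library.

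Of the 19 tested genes within 1 Mb of Gjb2, 7 were called higher and 4 lower in the edited clone against the unedited clone, and 8 higher and 2 lower against the parental line. The 5 called higher in both were Cenpj, Mphosph8, Pspc1, Zmym2 and Ift88, and the 2 called lower in both were Zdhhc20 and Micu2. Cenpj, a centriole assembly gene, had log2 differences of 1.21 and 1.17 (SE 0.18 each, adjusted p = 0.000607 and 0.00116). Micu2, a regulator of the mitochondrial calcium uniporter, had -1.01 and -0.92 (SE 0.14 each, 0.000491 and 0.00126). Of the 437 tested genes of chromosome 14, 133 were called higher and 47 lower against the unedited clone, and 134 and 30 against the parental line. Their median log2 difference was 0.19 and 0.21 in the 2 comparisons. Of all tested genes, 42.9 and 31.4% were called, and 21.5% in the same direction in both. Against the parental line, Pspc1 (0.38), Zmym2 (0.31) and Ift88 (0.52) lost their calls when single libraries were left out: Pspc1 without any edited or parental library or unedited replicate 1 (adjusted p = 0.0615 to 0.131), Zmym2 without edited replicate 1 or 3 or any parental library (0.0534 to 0.0835), and Ift88 without edited replicate 1 or parental replicate 3 (0.0513 to 0.0561). The Ift88 call was also lost without a filter on low counts (0.0539).

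Around Panx1, all 10 of the nearest tested genes, 5 on each side, were called lower in the edited clone than in the unedited clone, with a median log2 difference of -0.91, and 7 of the 10 were called lower than in the parental line as well, with a median of -0.75. None of them was at 0. The 7 were Amotl1, Fut4, Ankrd49, Mre11a, Vstm5, Med17 and 4931406C07Rik. Mre11a, a DNA double-strand break repair gene, was at 92.3 ± 3.15 CPM in the edited clone, 130.0 ± 21.1 in the unedited clone and 149.0 ± 7.37 in the parental line (log2 -0.50 and -0.69, SE 0.11 each, adjusted p = 0.00586 and 0.00164). Med17, a subunit of the Mediator complex, was at 42.3 ± 0.807, 59.2 ± 7.44 and 60.0 ± 0.555 CPM (-0.48 and -0.50, SE 0.09 each, 0.00277 and 0.00341). Fut4, a fucosyltransferase gene, was the lowest of the 7 at 1.24 ± 0.469 CPM in the edited clone, against 4.36 ± 0.564 and 5.06 ± 0.567 CPM.

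Of the 748 tested genes on chromosome 9, 400 were called lower and 59 higher in the edited clone against the unedited clone, and 406 lower and 20 higher against the parental line, with a median log2 difference of -0.53 in each comparison. Over all tested genes the medians were -0.02 and -0.01, with 24.2 and 18.3% called lower. The bounds for Panx1, at least 168-fold and 172-fold lower, were far beyond the chromosome's median. The medians on the chromosomes of the other tested members were nearer 0, at 0.05 and -0.06 for chromosome 10 (Gja1), 0.08 and 0.0 for chromosome X (Gjb1), 0.03 and 0.08 for chromosome 4 (Gjb5) and -0.05 and 0.0 for chromosome 11 (Gjc1). DNA was not measured here, so copy number and expression per copy cannot be told apart.

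**Figure D4:**
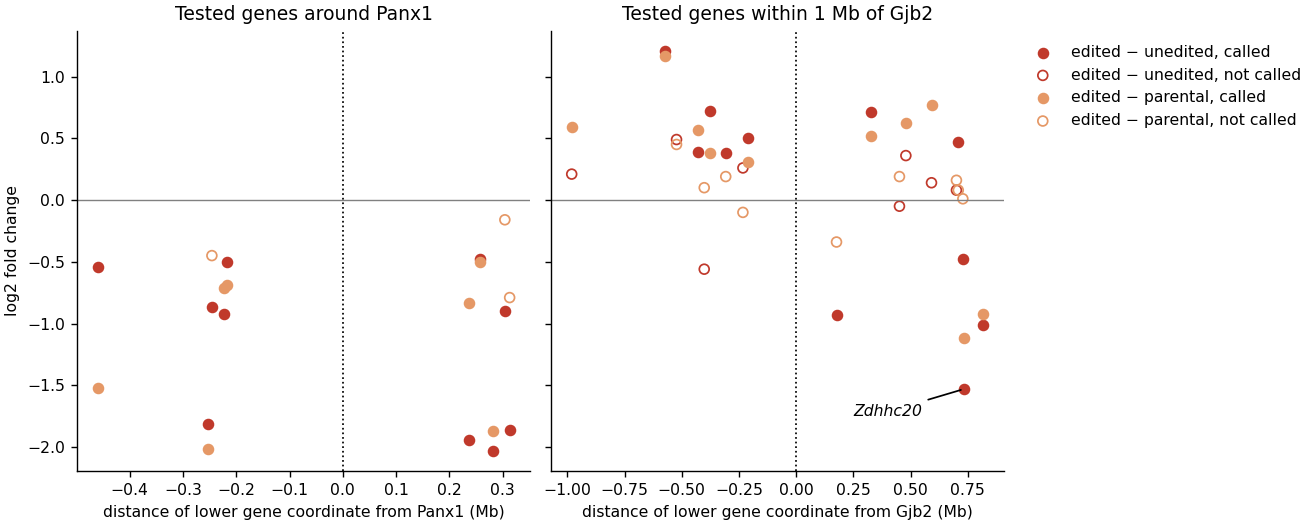
Log2 fold change of the edited clone against the unedited clone and against the parental line for tested genes around Panx1 (left, 5 on each side) and within 1 Mb of Gjb2 (right), by the distance between the lower coordinates of the genes in Mb; filled points were called. All 10 genes around Panx1 lie below 0 in both comparisons, while those around Gjb2 lie on both sides of 0, with Zdhhc20 among the lowest.

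The pattern of Panx1 was then compared with that of all other genes. Among the 13153 tested genes, 101 had 0 counts in all 3 edited libraries, 23 in all 3 unedited libraries and 5 in all 3 parental libraries. Panx1 was 1 of 9 that were at 0 in the edited clone and at 5 CPM or more in each of the other groups, and no gene met the same condition for the unedited clone or the parental line. By Pearson correlation of log2 CPM over the 9 libraries, the genes most like Panx1 were Bmp2 (r = 0.9992), Stk39 (0.9983), E2f6 (0.9978), Gprin1 (0.9974) and Gnao1 (0.9972). These r describe 3 groups of libraries and rest on the gap between the edited clone and the rest. By Spearman correlation the values were 0.776, 0.672, 0.593, 0.793 and 0.983.

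Bmp2, a bone morphogenetic protein, was at 0 in the edited libraries, 7.42, 7.55 and 8.08 CPM in the unedited libraries and 6.65, 6.42 and 6.59 in the parental libraries. Stk39, a kinase that regulates chloride cotransporters, was at 0 in the edited libraries, 7.64, 12.4 and 10.7 CPM in the unedited libraries and 12.4, 12.3 and 12.8 in the parental libraries. They lie on chromosome 2, E2f6 on 12, Gprin1 on 13 and Gnao1 on 8, none on the chromosome of Panx1. Among the tested members, the same r with Panx1 was 0.97 for Gjb1, 0.88 for Gja1, 0.67 for Gjb5 and -0.89 for Gjc1.

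Related genes were described from lists of 85 genes in all, of which 44 were tested, called the pathway lists below. They cover release of ATP, its receptors and its breakdown. They also cover the other connexins and pannexins, partners of gap junctions, and caspases and other proteins linked to PANX1. Across these lists, 5 genes rose and 15 fell in the edited clone against the unedited clone, and 4 rose and 14 fell against the parental line. Of all tested genes, 42.9% were called against the unedited clone (18.7% higher, 24.2% lower) and 31.4% against the parental line (13.1% higher, 18.3% lower). The counts of each list below are to be read beside these shares. In both comparisons 2 were called higher and 9 lower, which is 11 of 44, where 21.5% of all tested genes were called in the same direction in both (8.19% higher, 13.4% lower). The lists were chosen with results of these libraries known, so these counts are descriptions. Listed genes on chromosome 9, where the median log2 difference was -0.53 in each knockout comparison, were not set apart. The part of that shift in the calls was not tested. Between the unedited clone and the parental line 4 of the 44 were called higher and 5 lower, where 21.4% of all tested genes were called (10.4% higher, 11.0% lower).

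Other routes for ATP and anions out of the cell were covered by 16 genes, 10 of them tested. Against the unedited clone 3 were called higher and 3 lower, with a median log2 difference of -0.03, and against the parental line 1 higher and 3 lower, with a median of 0.0. The 6 calls against the unedited clone became 3 without edited replicate 3 or unedited replicate 1, and 3 in a fit of only the groups compared. Lrrc8b, a subunit of the volume-regulated anion channel, was at 140, 127 and 130 CPM in the edited libraries, 81.0, 76.2 and 81.4 in the unedited libraries and 108, 103 and 96.6 in the parental libraries. It rose in the edited clone against each group (log2 0.73 and 0.37, SE 0.07 each, adjusted p = 8.14e-05 and 0.00498), and was lower in the unedited clone than in the parental line (-0.37, adjusted p = 0.00818). Slco2a1, the prostaglandin transporter, fell against the unedited clone (-1.08, SE 0.16, adjusted p = 0.000686) and against the parental line (-0.66, SE 0.16, 0.0125). The second call was lost without edited replicate 1 or 3 or parental replicate 3 (adjusted p = 0.0556 to 0.0578).

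Vdac2, a pore of the outer mitochondrial membrane, was higher in the unedited clone than in the parental line (log2 0.41, SE 0.11, adjusted p = 0.0227). Leaving out any 1 parental library ended that call (adjusted p = 0.0717 to 0.0746), as did a fit of only the groups compared (0.0688). The release channels of the CALHM family had at most 0.53 CPM in any library, and none was tested.

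Receptors for nucleotides and adenosine were covered by 19 genes, of which 16 held a count and 5 were tested. Against the unedited clone 1 was called higher and 3 lower (median log2 difference -0.71), and against the parental line 1 higher and 2 lower (median -0.17). The 4 calls against the unedited clone became 2 in a fit of only the groups compared. P2ry2, a receptor for ATP and UTP, was at 0.293, 0.89 and 0.701 CPM in the edited libraries, 7.81, 9.52 and 7.98 in the unedited libraries and 4.77, 3.83 and 4.41 in the parental libraries. The 3 groups did not overlap. It fell in the edited clone, with log2 differences of -3.76 and -2.80 (SE 0.30 and 0.31, adjusted p = 2.64e-05 and 0.000204). It was higher in the unedited clone than in the parental line (0.96, adjusted p = 0.0225), a call that was lost without any 1 parental library (adjusted p = 0.0646 to 0.0949).

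P2ry6, a receptor for UDP, had no count in the edited libraries and was at 0.131, 0.238 and 0.157 CPM in the unedited libraries and 1.3, 1.36 and 1.41 in the parental libraries. The edited clone was thus at least 3.15-fold below the unedited clone and at least 25.1-fold below the parental line (edgeR adjusted p = 0.00517 and 0.00021). It was also lower in the unedited clone than in the parental line, with a log2 difference of -2.93 (SE 0.38, adjusted p = 0.00228), and no library of the 3 groups overlapped another group.

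P2ry12, a receptor for ADP, went the other way. It was at 8.55, 8.18 and 9.11 CPM in the edited libraries, 0.524, 1.43 and 0.157 in the unedited libraries and 1.93, 1.53 and 0.824 in the parental libraries, and every edited library exceeded the other 6. It rose by 3.65 (SE 0.52, adjusted p = 0.00052) against the unedited clone and by 2.57 (SE 0.47, adjusted p = 0.00321) against the parental line on the log2 scale. Without unedited replicate 2, the highest unedited library, the first was 4.58, the top of a range from 3.20 with 1 library left out, and it was called in each. P2rx4, an ATP-gated cation channel, was higher in the unedited clone than in the parental line (log2 1.01, SE 0.25, adjusted p = 0.0183). That call was lost without unedited replicate 1 or parental replicate 1 or 2 (adjusted p = 0.0544 to 0.0849), and in a fit of only the groups compared (0.0566).

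Ectoenzymes that degrade nucleotides were covered by 10 genes, 6 of them tested. None was called higher in the edited clone. Against the unedited clone 2 were called lower (median log2 difference -0.23) and against the parental line 4 (median -1.28). The 2 became 1 when any library but unedited replicate 2 was left out, 3 without that one, and 1 with the replicate block. The 4 became 1 or 2 without any 1 edited or parental library. Nt5e encodes CD73, which makes adenosine from AMP. It was at 5.71, 5.23 and 6.01 CPM in the edited libraries, 117, 84.8 and 159 in the unedited libraries and 82.6, 94.0 and 116 in the parental libraries. It fell, with log2 differences of -4.41 and -4.11 (SE 0.25 and 0.24, adjusted p = 3.89e-06 and 9.18e-06), and no edited library overlapped the others. Between the unedited clone and the parental line it differed by 0.30 (adjusted p = 0.32), but was called without unedited replicate 2 (0.50, adjusted p = 0.0339).

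Entpd8, which removes phosphates from ATP and ADP, was at 0.34 ± 0.106 CPM in the edited clone, 1.1 ± 0.694 in the unedited clone and 1.19 ± 0.253 in the parental line. It was called lower against each (log2 -1.69 and -1.77, SE 0.57 each, adjusted p = 0.0368 and 0.0404), but each call was lost in limma voom, with the replicate block and without most single libraries (adjusted p = 0.0538 to 0.128 and 0.0616 to 0.127). Unedited replicate 2, at 0.297 CPM, lay among the edited libraries. Entpd2, an enzyme of the same family, was lower in the unedited clone than in the parental line (log2 -1.59, SE 0.49, adjusted p = 0.0462), and leaving out any library but unedited replicate 3 ended that call (0.0629 to 0.128), as did DESeq2, the replicate block, a fit without a filter and a fit of only the groups compared (0.0687 to 0.1).

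**Figure D5:**
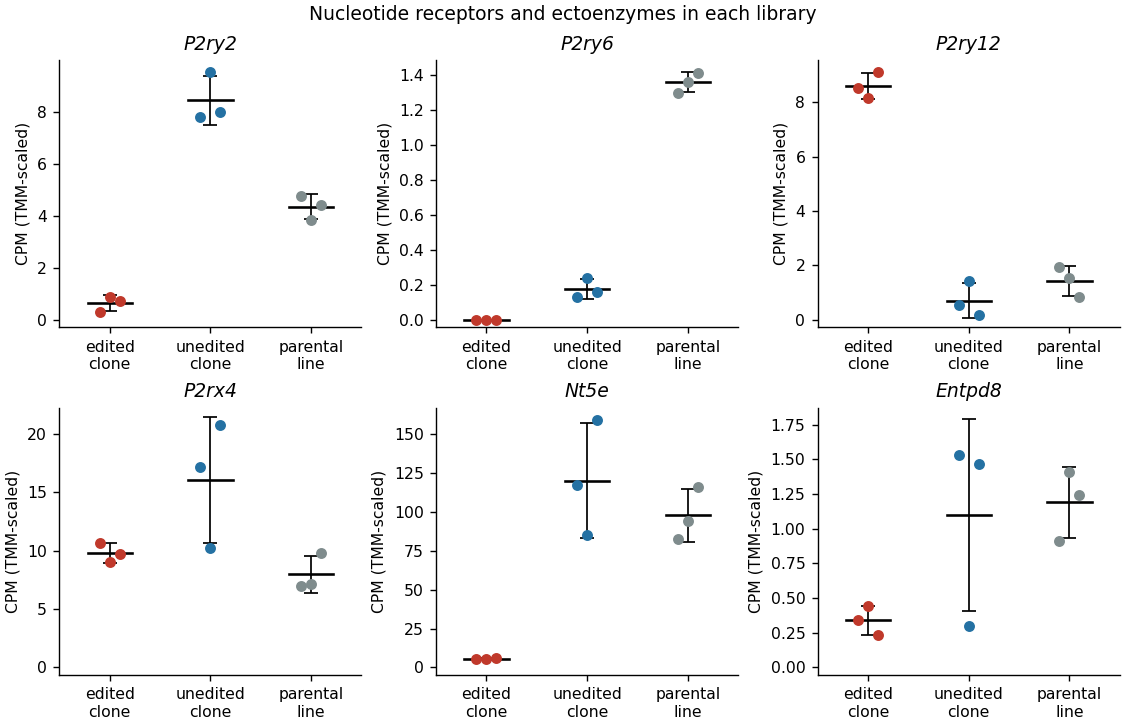
Level in CPM after TMM scaling of 4 nucleotide receptor genes and the ectoenzyme genes Nt5e and Entpd8 in each library, with the group mean and 1 SD (n = 3). The edited-clone points of P2ry2 and Nt5e lie below and those of P2ry12 above the 6 other libraries, while those of Entpd8 overlap the unedited clone.

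Partners of gap junctions were covered by 17 genes that bind, phosphorylate or ubiquitinate connexins or sit beside them in cell contacts, 16 of them tested. Against the unedited clone 0 were called higher and 5 lower, and against the parental line 2 higher and 4 lower, with medians of 0.03 and -0.07. Without unedited replicate 2 the 5 calls became 8, and against the parental line the 6 calls ranged from 4 to 6 with 1 library left out. The 4 called lower in both were Ocln, Cdh1, Nedd4 and Ctnnb1. Ocln, which encodes the tight junction protein occludin, was at 0.0977, 0.167 and 0.175 CPM in the edited libraries, 1.48, 0.892 and 2.41 in the unedited libraries and 3.32, 2.53 and 2.47 in the parental libraries. It fell, with log2 differences of -3.41 and -4.21 (SE 0.48 and 0.47, adjusted p = 0.000509 and 0.000222).

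Cdh1 encodes E-cadherin, the adhesion protein of epithelial cells, and is also on the epithelial marker list, whose summed level of at most 4560 CPM in the edited libraries was below the least of the others, 6870 CPM. The part of that marker shift in these genes was not tested. Nor was the part of the shift on chromosome 9 (median log2 difference -0.53 in each knockout comparison) for any of them that lie there. Cdh1 was at 768 ± 15.2 CPM in the edited clone, 1280 ± 193 in the unedited clone and 1200 ± 116 in the parental line (log2 -0.74 and -0.65, SE 0.11 each, adjusted p = 0.000848 and 0.00263). Nedd4, a ubiquitin ligase that acts on Cx43, fell from 2340 ± 136 and 2960 ± 20.5 CPM to 1500 ± 19.4 (-0.64 and -0.98, SE 0.07 each, 8.58e-05 and 1.81e-05). It was also lower in the unedited clone than in the parental line (-0.34, adjusted p = 0.00646). Ctnnb1, which encodes beta-catenin, fell as well (-0.40 and -0.45, SE 0.09 each, 0.00652 and 0.00547).

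Tjp1, whose product ZO-1 binds the tail of Cx43, was at 366 ± 11.8 CPM in the edited clone, 327 ± 25.8 in the unedited clone and 354 ± 14.9 in the parental line, and was not called in any comparison. It and its values were picked out after they were seen. Prkca, a kinase of connexins, was 0.20 higher (log2, SE 0.06) in the unedited clone than in the parental line (adjusted p = 0.046), a call that 12 of the alternative settings ended (0.0532 to 0.229), among them each single library left out except unedited replicates 2 and 3.

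Of 8 genes for caspases and other proteins linked to PANX1, 4 were tested. Caspases cut the tail of PANX1 and open the channel in dying cells. Against the unedited clone 0 were called higher and 2 lower, with a median log2 difference of -0.62. The 2 were Stom and Xkr8, named after their values were seen. Stom, which encodes the membrane protein stomatin, was at 136 ± 11.5 CPM in the edited clone, 208 ± 50.8 in the unedited clone and 168 ± 18.9 in the parental line (log2 -0.61, SE 0.17, adjusted p = 0.0157 against the unedited clone). Xkr8, a lipid scramblase gene, was at 5.23 ± 1.01, 8.08 ± 0.502 and 5.81 ± 0.783 CPM (-0.63, SE 0.17, 0.0156). Neither was called against the parental line (adjusted p = 0.199 and 0.552). The count of 2 dropped to 1 without edited replicate 1 or 3 and to 0 without edited replicate 2 or unedited replicate 1.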

How the data were processed

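RNA was measured in 9 libraries of mouse PDA530 Met cells, in 3 groups of 3 replicates, with the KAPA mRNA HyperPrep kit per the labels' protocols. The parental line is written PDA50 Met in the design text and PDA530 Met elsewhere in the labels. The deposited values are the authors' RSEM expected counts per Ensembl gene. All were whole numbers, so rounding changed none. STAR 2.5.2, RSEM 1.3.0, DESeq2 1.10.1 and GRCm38 are named in the submitters' processing notes without their roles. Strand setting and annotation release are not given in the sources used here, so reads of antisense partners cannot be told apart. RSEM divides reads that match several genes, but the members shared at most 0.11% of their 50-base stretches with other genes.

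Symbols and 1-based positions were taken from GENCODE M21 on GRCm38, which held 54809 of 54838 identifiers and lacked 29. Genes were filtered with filterByExpr (minimum count 10, minimum total 15), which left 13153 tested genes and set aside 12102 with a count. All 9 libraries entered 1 quasi-likelihood fit of edgeR 4.0.16 in R 4.3.3, with TMM scaling and the group as the only term. Calls required an adjusted p under 0.05 (Benjamini-Hochberg over all tested genes), and adjusted p values come from this test where no other is named. The SE is the ratio of the absolute log2 fold change to the square root of F. CPM are depth-scaled counts after TMM, and RPKM divide them by union exon length. The total counts of 16525869 to 23192701 make 3 counts over a group of 3 libraries about 0.054 CPM, the limit of detection used. The floor and the 95% exact intervals of pooled ratios cover counting error only, since PCR reads that carry no molecular identifier are not separate molecules. Each library counted as 1 replicate. All pairs within a group differed by more than sampling noise (lowest chi-square per gene 4.75). That check cannot tell separate cultures from separate preparations of 1 culture. The fitting steps were tested on simulated data.

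The members and all gene lists were chosen with earlier results of these data known. Named genes were the members and, with exceptions, other connexins and pannexins with a count. From each other list up to 4 genes called in the same direction in both knockout comparisons were named, with up to 2 called between the unedited clone and the parental line. Also named were neighbours called in both knockout comparisons and the 5 genes most correlated with Panx1 (log2 CPM, prior count 2). The alternatives were DESeq2 1.42.0 size factors or total counts, no filter, a filter on mean CPM (at least 5), the DESeq2 test or limma 3.58.1 voom, a replicate block, only the groups compared, and each library left out. Some genes of the lists are not reported here.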

Additional observations from a re-analysis of the deposited data

How the results depend on the processing

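The genes called among the 5 tested members were Panx1, Gja1, Gjb1 and Gjc1 in both knockout comparisons as fitted and under each alternative, with Gjb5 added against the parental line in a fit of only the groups compared and Gjb2 without a filter, and 0 in the unedited clone against the parental line except without unedited replicate 2. Against the parental line, the edited clone had 4131 calls, 6840 in a fit of only the groups compared and 2515 to 5693 with 1 library left out. The unedited clone against the parental line had 2814 calls, 1525 in a fit of only the groups compared and 1472 to 4102 with 1 library left out. The edited clone against the unedited clone had 5643 calls, and 4301 to 7204 with 1 library left out. Calls among the members ranged from 4 to 4 in each knockout comparison and from 0 to 1 between the unedited clone and the parental line with 1 library left out. Since the level of Panx1 in the edited clone chose the set, the members' calls in the knockout comparisons remain descriptions under every setting. Calls in the pathway lists against the unedited clone were 20, 13 in a fit of only the groups compared and 13 to 23 with 1 library left out. Against the parental line they were 18, 11 with the filter on mean CPM, where fewer genes are tested, and 12 to 20 with 1 library left out. Between the unedited clone and the parental line they were 9, 5 in a fit of only the groups compared and 4 to 17 with 1 library left out, highest without unedited replicate 2. Neighbours of Panx1 called in both knockout comparisons numbered 7 with any 1 library left out and 6 with the filter on mean CPM, and neighbours of Gjb2 numbered 7, or 4 to 9 with 1 library left out. Spearman in place of Pearson gave 0.7759 for Bmp2, 0.6724 for Stk39, 0.5933 for E2f6 and 0.7931 for Gprin1, where ranks ignore the gap between groups. Except where a clause above says so, the cause of these shifts was not tested. Of the named genes' values with a test, 1865 kept their direction and side of the threshold, 103 lost a call, 15 gained one and none reversed. The replicate numbers were not used to pair the libraries in the main fit. Same-numbered libraries deviated together at r = -0.134 to 0.212, which does not tell whether they shared a culture day or batch. With the replicate number as a block, 5528, 3941 and 2492 genes were called in the 3 comparisons, 4, 4 and 0 of the members and 18, 17 and 8 of the pathway genes. Among the members with a count, Gjb2, Gjb5 and Gjb6 had the fewest, which limits their precision.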
